A study of Saccharomyces cerevisiae with 9 samples.

Results

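The 55 genes described here encode cytosolic translation factors and aminoacyl-tRNA synthetases of budding yeast. They were taken by gene name from a table of 6215 genes, and all 55 were found and tested. They comprise 8 genes of the initiation factors eIF2 and eIF2B, 4 of start codon selection and subunit joining, 6 of eIF3, 8 of cap and poly(A) binding, 9 of elongation, 2 of termination and 18 of tRNA synthetases. RNA selected for poly(A) was sequenced from 3 strains with 3 biological replicates each, grown without treatment at 28 °C for 24 h in synthetic complete (SC) medium. The study compared expression in the wild type, BY4742, with that in pil1Δ and seg1Δnce102Δpil1Δ cells, called the triple mutant below. Pil1 is a structural protein of eisosomes, assemblies that shape furrows of the plasma membrane, Seg1 helps to organise them, and Nce102 spans the membrane in that domain. All strains were MATα and carried his3Δ1, leu2Δ0 and ura3Δ0. The wild type and pil1Δ also carried lys2Δ0, and pil1Δ had kanMX4 in place of PIL1. The genotype of the triple mutant lists LYS2 instead of lys2Δ0. It also names MET15, but no met15 deletion is among the markers given here for the other strains. The marker difference and the 3 deletions cannot be told apart in any comparison with the triple mutant.

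In translation, eIF2 brings the initiator tRNA to the small ribosomal subunit and eIF2B recharges eIF2 with GTP, which makes eIF2B a control point under amino acid starvation. The eIF4 proteins and Pab1 join the cap and the poly(A) tail of the mRNA, and eIF3 and eIF1 help the small subunit to find the start codon. eEF1A delivers charged tRNAs, eEF1B recharges eEF1A, eEF2 moves the ribosome along the mRNA, and fungi need a further ATPase, eEF3. Each tRNA synthetase joins 1 amino acid to its tRNAs. Cells that grow fast make much of this machinery, and its mRNAs are among those that yeast adjusts with growth and nutrients.

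Library depth was between 21064051 and 27014469 reads, and values are read counts divided by 1 size factor per library, called normalized reads. The deleted genes followed the labels. PIL1 had 18558 to 24847 reads in wild type, 118 to 149 in pil1Δ and 79 to 87 in the triple mutant, and in the triple mutant SEG1 had 11 to 24 and NCE102 122 to 223. LYS2 had 0 reads in the 6 wild type and pil1Δ libraries and 21787 to 30209 in the triple mutant. Among genes of MATα cells, MF(ALPHA)1, the α-factor gene, had 1590 to 9977 reads over the 9 libraries, STE3 1316 to 3217 and MF(ALPHA)2 144 to 444. Among genes of MATa cells, MFA1, the a-factor gene, had 13 to 177, MFA2 43 to 121, BAR1 94 to 356 and STE2 224 to 1102. STE2 had more reads than MF(ALPHA)2 in every wild type and pil1Δ library, so these markers did not all follow the mating type. Several libraries stood apart from the others of their strain for the 55 genes. Wild type 2 had the lowest value of its strain for 50 genes, pil1Δ 2 for 47 and triple mutant 1 for 33, of which 16 were among the 18 synthetases. With each gene set against its own wild-type mean on the log2(normalized reads + 1) scale, the 55 genes had a median of 0.14, -0.20 and 0.05 in wild type 1 to 3. It was 0.21, -0.10 and 0.06 in pil1Δ, and -0.35, -0.13 and -0.11 in the triple mutant. The same median over all genes tested lay between -0.02 and 0.01 in every library.

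More of the translation genes fell than rose in the triple mutant against wild type, and called and uncalled genes stood side by side in nearly every role. The steepest falls were those of the elongation factor genes YEF3 and TEF4, the lysine and phenylalanine synthetase genes KRS1, FRS1 and FRS2, and GCN3 of eIF2B, while SUI1, TIF35 and DPS1 rose. Of the 55 genes, 17 fell, 3 rose and 35 were not called by limma at an adjusted p under 0.05. Over all 5886 genes tested, 30.9% fell, 30.1% rose and 60.9% were called in either direction, against 36.4% of the 55. The share of translation genes that fell was therefore near that of all genes. The median log2 fold change was -0.19 for the 55 genes and -0.01 for all genes tested. Leaving out 1 library at a time gave medians of the 55 from -0.27 (without triple mutant 3) to -0.08 (without triple mutant 1). Without wild type 1 the median was -0.12, and without both wild type 1 and triple mutant 1 it was -0.05. Without both, 10 of the 55 genes were lower and 4 higher, against 1590 and 1550 of 5886 genes tested. Without wild type 2 and pil1Δ 2 together, 23 of the 55 were lower and 2 higher, against 1833 and 1675 of 5885 genes tested. With DESeq2 5 of the 55 were higher, against 31.8% of all genes, since GCD11 and CAM1 also passed, and RPG1, PRT1, TEF1, HYP2 and SUP45 were added to the genes called lower. With the replicate number as a block 8 were higher, against 34% of all genes, with TIF34, HCR1 and TIF2 added to these, and RPG1, PRT1, TEF1 and SUP45 were again lower.

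The 55 genes took a smaller part of the sequenced RNA in the triple mutant. Their share was 2.28 ± 0.304% for wild type (mean ± SD of 3 libraries), 2.41 ± 0.232% in pil1Δ and 1.49 ± 0.150% in the triple mutant. The factors alone held 1.33 ± 0.222%, 1.42 ± 0.168% and 0.832 ± 0.0410%, and the synthetases 0.950 ± 0.0853%, 0.991 ± 0.0691% and 0.660 ± 0.109%, all as shares of reads. RNA came from whole cultures, so fewer cells holding a transcript and less of it per cell cannot be told apart. When libraries were scaled by total reads in place of the deposited size factors, the median of all genes moved to -0.23 and all calls split into 1028 higher and 2380 lower, against 1770 and 1816. The 55 genes then split into 2 higher and 31 lower, with a median of -0.42, while 17.5% of all genes were higher and 40.4% lower, so that their median lay below that of all genes under either scaling. Of the 55 genes, 25 had a 95% confidence interval within 1.5-fold of no change, all of them among the 35 not called. Over all genes tested, called or not, 33.6% did. For the other 10 uncalled genes of the 55 the interval reached beyond it.

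**Figure D1:**
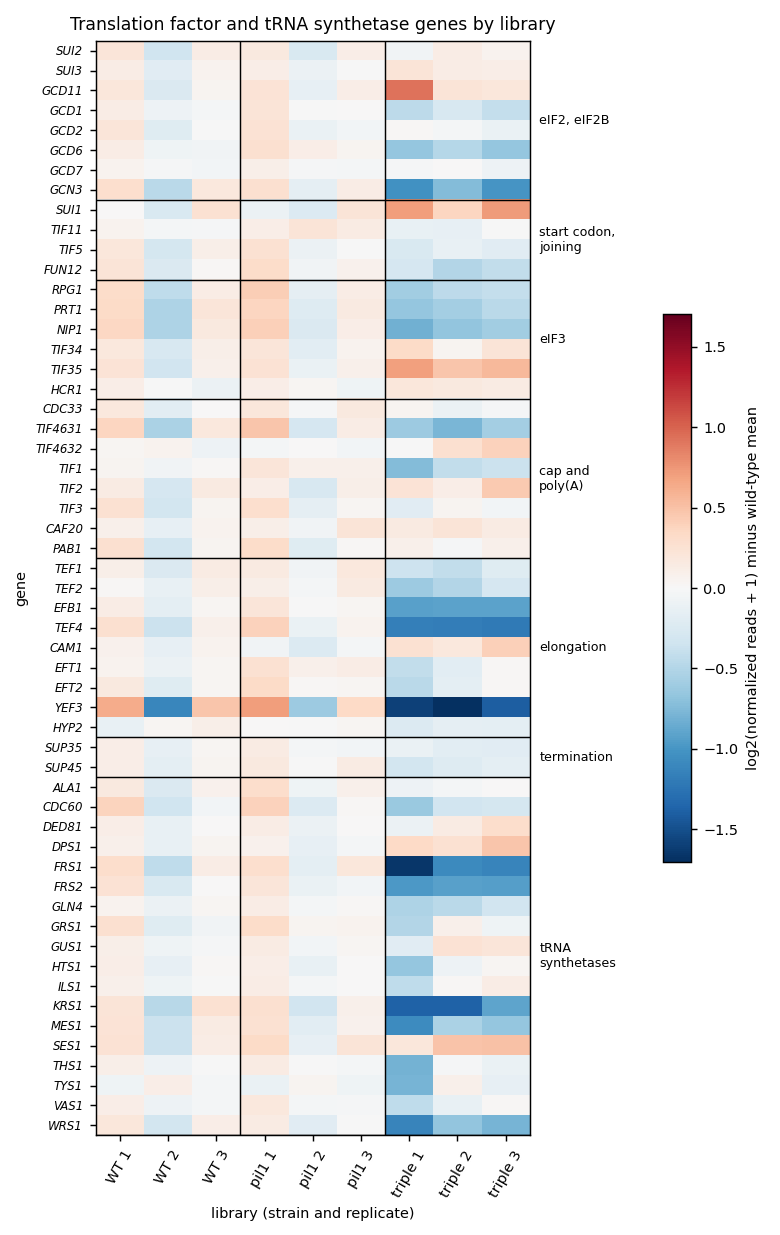
Each cell is log2(normalized reads + 1) of 1 gene in 1 library minus the wild-type mean of that gene, with genes in rows by role and the 9 libraries in columns. Blue cells of YEF3, TEF4, EFB1, FRS1, FRS2, KRS1 and GCN3 fill the triple mutant columns, and wild type 2 and pil1Δ 2 are paler or bluer than the other libraries of their strains.

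**Figure D2:**
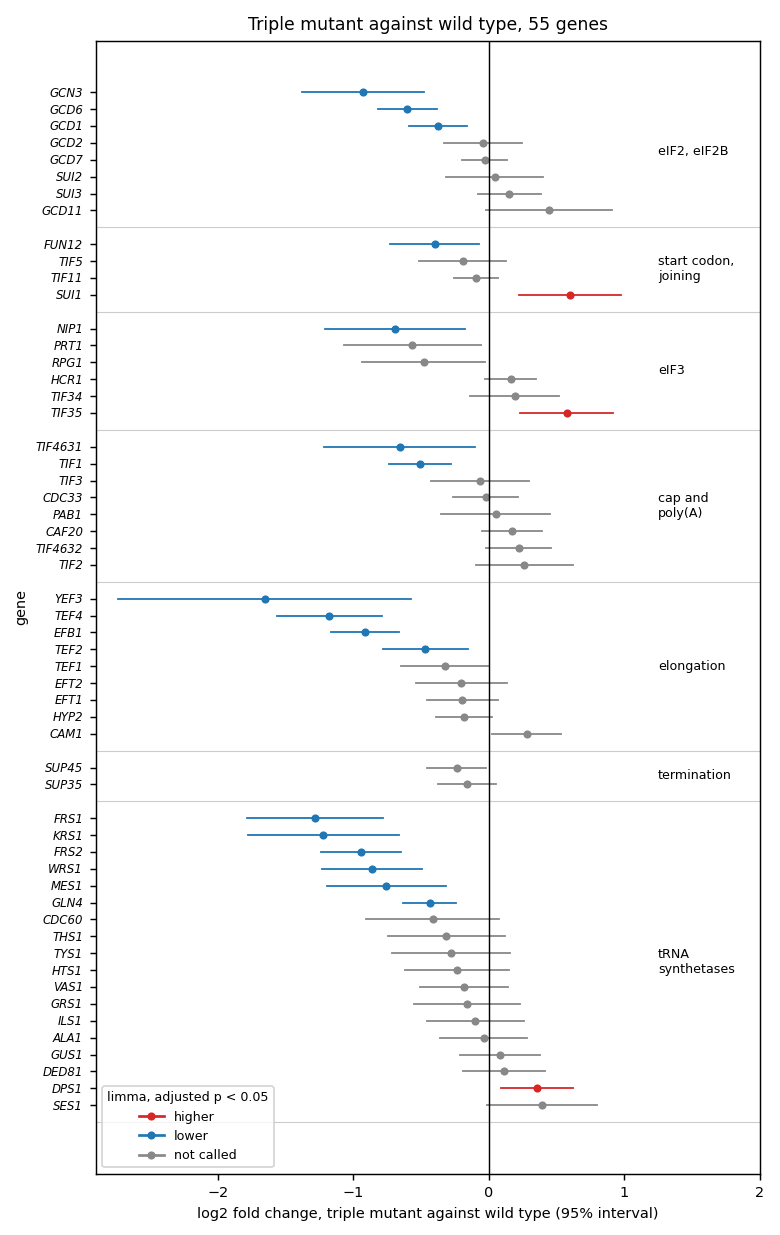
Points are log2 fold changes of the triple mutant against wild type for the 55 genes, with 95% confidence intervals as lines (n = 3 libraries per strain). Blue marks the 17 genes called lower, red the 3 called higher and grey the 35 not called, and the points run from -1.65 for YEF3 to 0.60 for SUI1.

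The elongation genes held the largest single change. YEF3 (YLR249W, chromosome XII, 636780 to 639914, R64), which encodes eEF3, had 93099, 28058 and 83726 normalized reads in wild type 1 to 3, 98713, 39159 and 75949 in pil1Δ, and 19966, 15415 and 22821 in the triple mutant. Each triple mutant library was below every other library, and wild type 2 lay much nearer to the triple mutant than wild type 1 and 3 did. YEF3 fell by 1.65 on the log2 scale (SE 0.48, adjusted p = 0.0144 by limma), which is 3.15-fold. The call was lost without wild type 1 (adjusted p = 0.0538), wild type 3 (adjusted p = 0.0534) or triple mutant 2 (adjusted p = 0.0506), with log2 fold changes of -1.34, -1.42 and -1.50. YEF3 alone took 0.136 to 0.412% of reads in wild type and 0.0649 to 0.0857% in the triple mutant. HEF3, its paralog with 74.8% identity of the coding sequence, had 7715 ± 1593 normalized reads in wild type and 10320 ± 5566 in the triple mutant and was not called (adjusted p = 0.423 by limma).

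Among the genes of eEF1B, the exchange factor complex of eEF1A, EFB1 and TEF4 fell and CAM1 was not called. EFB1 (YAL003W, chromosome I, 142174 to 143160), the catalytic subunit, had 16479, 13498 and 15430 normalized reads in wild type, 17336, 15039 and 15471 in pil1Δ, and 7966, 8052 and 8017 in the triple mutant. TEF4 (YKL081W, chromosome XI, 282891 to 284455), a γ subunit, had 3422, 2194 and 3015 in wild type, 3707, 2621 and 2938 in pil1Δ, and 1269, 1252 and 1229 in the triple mutant. In both genes the 3 triple mutant libraries lay close together and below all others. EFB1 fell by 0.91 on the log2 scale (SE 0.11, adjusted p = 0.00012 by limma) and TEF4 by 1.18 (SE 0.17, adjusted p = 0.000359). CAM1 (YPL048W, chromosome XVI, 464401 to 465648), the other γ subunit gene, had 12136, 10516 and 12022 normalized reads in wild type, 11110, 9811 and 11282 in pil1Δ, and 13790, 13042 and 15248 in the triple mutant. CAM1 was the higher of the γ subunit genes in every library, and it was not called (log2 fold change 0.28, adjusted p = 0.058 by limma). The log2 ratio of TEF4 to CAM1 was -1.83, -2.26 and -1.995 in wild type and -3.44, -3.38 and -3.63 in the triple mutant. The ratios of the strains did not overlap, though with 3 libraries against 3 an exact permutation test cannot go below p = 0.1. EFB1 and TEF4 each hold a small nucleolar RNA gene on the same strand, SNR18 and SNR38, and the sources used here do not say whether its reads were counted with the host gene.

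eEF1A and eEF2 are each encoded by a pair of near-identical genes, as is the RNA helicase eIF4A, and reads of these pairs are uncertain. The coding sequences of TEF1 and TEF2 differ at 2 of 1377 bases, those of EFT1 and EFT2 at 4 of 2529, and those of TIF1 and TIF2 at 6 of 1188, with 0 residues changed in each pair. The longest runs without a difference were 761, 1262 and 644 bases. The stretches below, from the R64 reference at chrXVI:701345-701404 (+), chrII:478422-478481 (+), chrXV:575534-575593 (+), chrIV:1243666-1243725 (+), chrXI:555201-555260 (+) and chrX:154418-154477 (-), show how little there is to separate a pair. Capitals mark the bases that differ.
TEF1: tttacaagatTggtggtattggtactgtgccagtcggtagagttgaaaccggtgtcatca
TEF2: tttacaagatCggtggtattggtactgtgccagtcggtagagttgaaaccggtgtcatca
EFT1: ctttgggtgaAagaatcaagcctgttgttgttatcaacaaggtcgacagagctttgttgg
EFT2: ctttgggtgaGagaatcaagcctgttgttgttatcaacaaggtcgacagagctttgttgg
TIF1: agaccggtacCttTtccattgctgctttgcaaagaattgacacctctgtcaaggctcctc
TIF2: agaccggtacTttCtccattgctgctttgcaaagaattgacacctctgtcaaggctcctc
The sources used here do not say how reads that match both copies were counted, and such reads may have been dropped or shared out.

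Summed over the pair, eEF1A mRNA was lower in the triple mutant. TEF1 and TEF2 together had 65416, 55855 and 68503 normalized reads in wild type, 68652, 61056 and 70476 in pil1Δ, and 44370, 45542 and 52931 in the triple mutant. The strains did not overlap, and the sum fell by 0.41 on the log2 scale (SE 0.15, adjusted p = 0.0379 by limma). That call was lost without any 1 of wild type 1 (adjusted p = 0.0978), wild type 3 (0.122), triple mutant 1 (0.0664) or triple mutant 2 (0.0932). It was lost as well without pil1Δ 1 (0.0596), 2 (0.0506) or 3 (0.0561). TEF2 alone had 39293, 35318 and 41557 normalized reads in wild type, 41457, 37696 and 42994 in pil1Δ and 25198, 27298 and 31752 in the triple mutant, and fell by 0.47 (adjusted p = 0.0159 by limma; 0.0593 without wild type 3). TEF1 had 26123, 20537 and 26946 in wild type, 27195, 23360 and 27483 in pil1Δ and 19172, 18244 and 21179 in the triple mutant, and was not called (log2 fold change -0.32, adjusted p = 0.0798; 0.0296 without wild type 2).

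The sum of EFT1 and EFT2, the eEF2 genes, was 10013, 8295 and 9435 normalized reads in wild type, 11291, 9517 and 9736 in pil1Δ, and 6802, 8185 and 9304 in the triple mutant. The strains overlapped and the sum was not called (log2 fold change -0.20, 95% interval -0.51 to 0.12, adjusted p = 0.242 by limma). EFT1 had 4349, 3906 and 4284 normalized reads in wild type and 3122, 3692 and 4215 in the triple mutant. EFT2 had 5664, 4389 and 5151 in wild type and 3680, 4493 and 5089 in the triple mutant. Neither gene was called, at -0.19 and -0.20, and EFT1 passed without triple mutant 3 (adjusted p = 0.0486 by limma). HYP2, which encodes eIF5A, which helps stalled ribosomes to go on, had 8506, 9449 and 9894 in wild type and 7893, 8346 and 8283 in the triple mutant. Its values did not overlap between these strains, yet it was not called (log2 fold change -0.18, 95% interval -0.39 to 0.03). HYP2 is 91.1% identical to ANB1, the form made without oxygen, which had 62.8 ± 15.1 normalized reads in wild type and 49.7 ± 4.84 in the triple mutant.

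The 3 genes of eIF2 were not called by limma, and 3 genes of its exchange factor eIF2B fell. Of these 8 genes 37.5% were called, where 60.9% of all genes were called and 30.9% fell. Whether the genes of eIF2 and eIF2B differ was not tested. GCN3 (YKR026C, chromosome XI, 488738 to 489655), the α subunit through which phosphorylated eIF2 inhibits eIF2B, had 778, 466 and 723 normalized reads in wild type, 772, 576 and 700 in pil1Δ, and 312, 384 and 317 in the triple mutant. All 3 triple mutant libraries were below the others, and GCN3 fell by 0.93 on the log2 scale (SE 0.20, adjusted p = 0.00315 by limma). GCD6 (YDR211W, chromosome IV, 884727 to 886865), the catalytic ε subunit, had 4453, 3868 and 3900 in wild type, 4924, 4402 and 4194 in pil1Δ and 2568, 2891 and 2587 in the triple mutant. It fell by 0.60 (SE 0.096, adjusted p = 0.000591), with no overlap of strains. GCD1 (YOR260W, chromosome XV, 813984 to 815720), the γ subunit, had 2784, 2416 and 2498 in wild type, 2979, 2552 and 2578 in pil1Δ and 1877, 2122 and 1937 in the triple mutant. It fell by 0.37 (adjusted p = 0.00749 by limma; 0.0589 without wild type 1 and triple mutant 1 together). The regulatory subunits GCD7 and GCD2 were not called. GCD7 had 1904 ± 76.8 normalized reads in wild type and 1863 ± 69.8 in the triple mutant, and GCD2 2472 ± 356 and 2384 ± 111.

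Among the eIF2 genes, SUI2, the α subunit that is phosphorylated under starvation, had 2602 ± 498 normalized reads in wild type and 2651 ± 168 in the triple mutant. SUI3, the β subunit, had 4638 ± 522 and 5130 ± 194. GCD11, the γ subunit that binds GTP, had 3756, 2761 and 3399 in wild type and 6215, 3803 and 3760 in the triple mutant. Triple mutant 1 was far above the other libraries for GCD11, and the gene was not called (log2 fold change 0.45, 95% interval -0.02 to 0.91, adjusted p = 0.0875 by limma). It passed with DESeq2 (adjusted p = 0.0462) and with the replicate number as a block (0.015, or 0.0437 with only the groups compared).

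Genes of start codon selection went both ways. SUI1 (YNL244C, chromosome XIV, 187170 to 187496), which encodes eIF1, the factor that holds the scanning ribosome open, had 2675, 2232 and 3194 normalized reads in wild type, 2483, 2276 and 3102 in pil1Δ, and 4359, 3428 and 4419 in the triple mutant. The lowest triple mutant library was above the highest of the others, and SUI1 rose by 0.60 on the log2 scale (SE 0.17, adjusted p = 0.012 by limma). The SUI1 call was lost without wild type 1 and triple mutant 1 together (adjusted p = 0.0763 by limma). FUN12 (YAL035W, chromosome I, 76427 to 79435), which encodes eIF5B for subunit joining, had 11249, 8124 and 9755 in wild type, 11917, 9239 and 10117 in pil1Δ, and 7873, 6836 and 7207 in the triple mutant. It fell by 0.40 (SE 0.14, adjusted p = 0.0379 by limma). That call was lost without wild type 1 (adjusted p = 0.131), wild type 3 (0.0899), pil1Δ 3 (0.0559), triple mutant 2 (0.104) or triple mutant 3 (0.0893). TIF11 (eIF1A) and TIF5 (eIF5, which triggers GTP hydrolysis by eIF2) were not called, at log2 fold changes of -0.09 and -0.19. TIF5 passed without wild type 2 (adjusted p = 0.0323 by limma).

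Within eIF3, the scaffold that ties the other initiation factors to the small subunit, 1 subunit gene fell and 1 rose. The share called was 33.3% of 6 genes, against 60.9% of all genes. NIP1 (YMR309C, chromosome XIII, 892988 to 895426), the c subunit, had 5077, 2773 and 4457 normalized reads in wild type, 5246, 3341 and 4282 in pil1Δ, and 2259, 2504 and 2641 in the triple mutant. Wild type 2 was just above the highest triple mutant library. NIP1 fell by 0.69 on the log2 scale (SE 0.23, adjusted p = 0.0264 by limma), and the call was lost without wild type 1 (adjusted p = 0.0945), wild type 3 (0.0841), triple mutant 1 (0.0769) or triple mutant 2 (0.0578). TIF35 (YDR429C, chromosome IV, 1324477 to 1325301), the g subunit, had 2584, 1747 and 2327 in wild type, 2599, 2020 and 2316 in pil1Δ and 3561, 3044 and 3196 in the triple mutant, and rose by 0.57 (SE 0.15, adjusted p = 0.00954 by limma). The groups did not overlap for TIF35. RPG1 (a subunit) and PRT1 (b subunit) were not called, at -0.48 (adjusted p = 0.0652) and -0.56 (adjusted p = 0.0526), and both overlapped between strains only through wild type 2, which had 4059 and 2844 normalized reads. Without wild type 2 they passed, with adjusted p of 0.00564 and 0.00226, and PRT1 passed without pil1Δ 2 as well (0.0421). TIF34 (i subunit) and HCR1 (j subunit) were not called, at 0.19 and 0.16.

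Of the genes that act at the cap and the poly(A) tail, TIF4631 and TIF1 fell. The share called was 25% of 8 genes, against 60.9% of all genes. TIF4631 (YGR162W, chromosome VII, 824059 to 826917), the main gene of the scaffold eIF4G, had 8545, 4571 and 7577 normalized reads in wild type, 9225, 5482 and 7267 in pil1Δ, and 4345, 3886 and 4456 in the triple mutant. Wild type 2 was close to the triple mutant, as for YEF3 and NIP1. TIF4631 fell by 0.66 on the log2 scale (SE 0.25, adjusted p = 0.0434 by limma), a call that was lost without wild type 1 (0.146), wild type 3 (0.126), pil1Δ 3 (0.0623) or any 1 of triple mutant 1 (0.0794), 2 (0.114) and 3 (0.0773). TIF4632, the second eIF4G gene, had 2890, 2937 and 2665 normalized reads in wild type and 2808, 3412 and 3727 in the triple mutant, and was not called (log2 fold change 0.22, adjusted p = 0.0996; 0.0062 without triple mutant 1). TIF1 (YKR059W, chromosome XI, 554987 to 556174) had 1795, 1676 and 1761 in wild type, 2009, 1847 and 1857 in pil1Δ and 1049, 1301 and 1348 in the triple mutant, and fell by 0.51 (SE 0.10, adjusted p = 0.0022 by limma). TIF2, its near-identical partner, had 4607, 3410 and 4636 in wild type, 4529, 3453 and 4477 in pil1Δ and 4914, 4516 and 5669 in the triple mutant, and was not called (0.26, adjusted p = 0.176).

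The sum of TIF1 and TIF2, which does not depend on how shared reads were split between the copies, was 6403, 5086 and 6397 normalized reads in wild type and 5963, 5817 and 7017 in the triple mutant. It was not called (log2 fold change 0.07, 95% interval -0.22 to 0.37, adjusted p = 0.647 by limma). The log2 ratio of TIF1 to TIF2 was -1.36, -1.03 and -1.40 in wild type and -2.23, -1.80 and -2.07 in the triple mutant, without overlap. The other cap and poly(A) genes were near their wild-type levels. PAB1, the poly(A)-binding protein, had 19130 ± 3739 normalized reads in wild type and 19560 ± 793 in the triple mutant. CDC33, the cap-binding protein eIF4E, had 2884 ± 360 and 2827 ± 143, and TIF3, which encodes eIF4B, 4354 ± 844 and 4120 ± 350. CAF20, a repressor that competes with eIF4G for eIF4E, had 877.5 ± 75.4 and 987.2 ± 30.1 and was not called (0.17, 95% interval -0.05 to 0.40).

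Neither release factor gene was called. SUP45, which encodes eRF1, the factor that reads stop codons, had 4907, 4047 and 4687 normalized reads in wild type and 3636, 3887 and 4032 in the triple mutant. Its values did not overlap, and its adjusted p was 0.0599 by limma, or 0.0205 without wild type 2. SUP35, which encodes the partner GTPase eRF3, had 6236, 5246 and 5937 in wild type and 5357, 5108 and 5060 in the triple mutant, with overlapping strains (log2 fold change -0.16, adjusted p = 0.166).

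Of the 18 synthetase genes, 6 fell, 1 rose and 11 were not called, so that 38.9% were called against 60.9% of all genes, of which 30.9% fell. Both subunits of the phenylalanine enzyme were among those that fell. FRS1 (YLR060W, chromosome XII, 260979 to 262766), its β subunit, had 3785, 2264 and 3357 normalized reads in wild type, 3745, 2731 and 3490 in pil1Δ, and 976, 1449 and 1414 in the triple mutant. FRS2 (YFL022C, chromosome VI, 93499 to 95010), its α subunit, had 4572, 3239 and 3897 in wild type, 4455, 3563 and 3725 in pil1Δ and 1966, 2035 and 2024 in the triple mutant. Both genes had all triple mutant libraries below all others. FRS1 fell by 1.28 on the log2 scale (SE 0.22, adjusted p = 0.000957 by limma) and FRS2 by 0.94 (SE 0.13, adjusted p = 0.000277). KRS1 (YDR037W, chromosome IV, 525440 to 527215), which charges lysine tRNA, had 50427, 31232 and 51756 in wild type, 52272, 34626 and 45964 in pil1Δ and 16691, 16648 and 23193 in the triple mutant. It fell by 1.22 (SE 0.25, adjusted p = 0.00228 by limma), without overlap of strains. The strains also differ in their need for lysine from the medium, since the wild type and pil1Δ lack LYS2, and this difference cannot be told apart from the deletions.

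The other synthetase genes that fell were those of tryptophan, methionine and glutamine. WRS1 (tryptophan) had 2483, 1755 and 2351 normalized reads in wild type, 2382, 1891 and 2168 in pil1Δ and 997, 1361 and 1257 in the triple mutant, and fell by 0.86 on the log2 scale (adjusted p = 0.00156 by limma). MES1 (methionine) had 7977, 5298 and 7466 in wild type, 8111, 6029 and 7169 in pil1Δ and 3243, 4683 and 4309 in the triple mutant. It fell by 0.76 (adjusted p = 0.00816 by limma; 0.0729 without wild type 1 and triple mutant 1 together). GLN4 (glutamine) had 4269, 3812 and 4198 in wild type, 4478, 4000 and 4146 in pil1Δ and 2851, 2964 and 3261 in the triple mutant, and fell by 0.44 (adjusted p = 0.00206). None of these 3 genes overlapped between the triple mutant and the other strains. DPS1 (YLL018C, chromosome XII, 109902 to 111575), the aspartate enzyme, had 16267, 13944 and 15708 in wild type, 16074, 13817 and 14879 in pil1Δ and 19395, 18282 and 21142 in the triple mutant. It rose by 0.36 (SE 0.12, adjusted p = 0.0246 by limma). That call was lost without wild type 2 (0.0961), wild type 3 (0.051) or triple mutant 3 (0.0824), and when libraries were scaled by total reads (log2 fold change 0.13, adjusted p = 0.33).

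For each of the 11 synthetase genes not called, triple mutant 1 lay below the other 2 triple mutant libraries. THS1 (threonine) had 5810, 10029 and 9422 normalized reads in triple mutant 1 to 3, HTS1 (histidine) 2526, 3749 and 4085, and TYS1 (tyrosine) 2557, 4720 and 4028. In wild type 1 to 3 these genes had 10871, 9577 and 10083, then 4304, 3627 and 4034, and 4210, 4774 and 4318. Triple mutant 2 and 3 were thus at or near the wild-type range for these genes, and triple mutant 1 was below it. ILS1 (isoleucine) had 20465, 28119 and 30110 in the triple mutant against 29467, 26290 and 27454 in wild type, and VAS1 (valine) 14290, 17767 and 19630 against 21009, 18201 and 18967. Over the 18 genes, the median difference from the wild-type mean was -0.57, -0.06 and -0.09 on the log2 scale in triple mutant 1 to 3.

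The remaining uncalled synthetase genes lay on either side of no change. CDC60 (leucine) had 20210 ± 5116 normalized reads in wild type and 14930 ± 1847 in the triple mutant (adjusted p = 0.127 by limma; 0.0468 without wild type 2). GRS1 (glycine) had 5022 ± 858 and 4516 ± 911, and ALA1 (alanine) 14970 ± 2136 and 14500 ± 404. Higher means in the triple mutant were those of SES1 (serine), at 3063 ± 352 against 2359 ± 493 (adjusted p = 0.0849; 0.0479 without wild type 1), DED81 (asparagine), at 14480 ± 1990 against 13350 ± 1080, and GUS1 (glutamate), at 8708 ± 1406 against 8153 ± 512. None of these 6 genes was called.

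**Figure D3:**
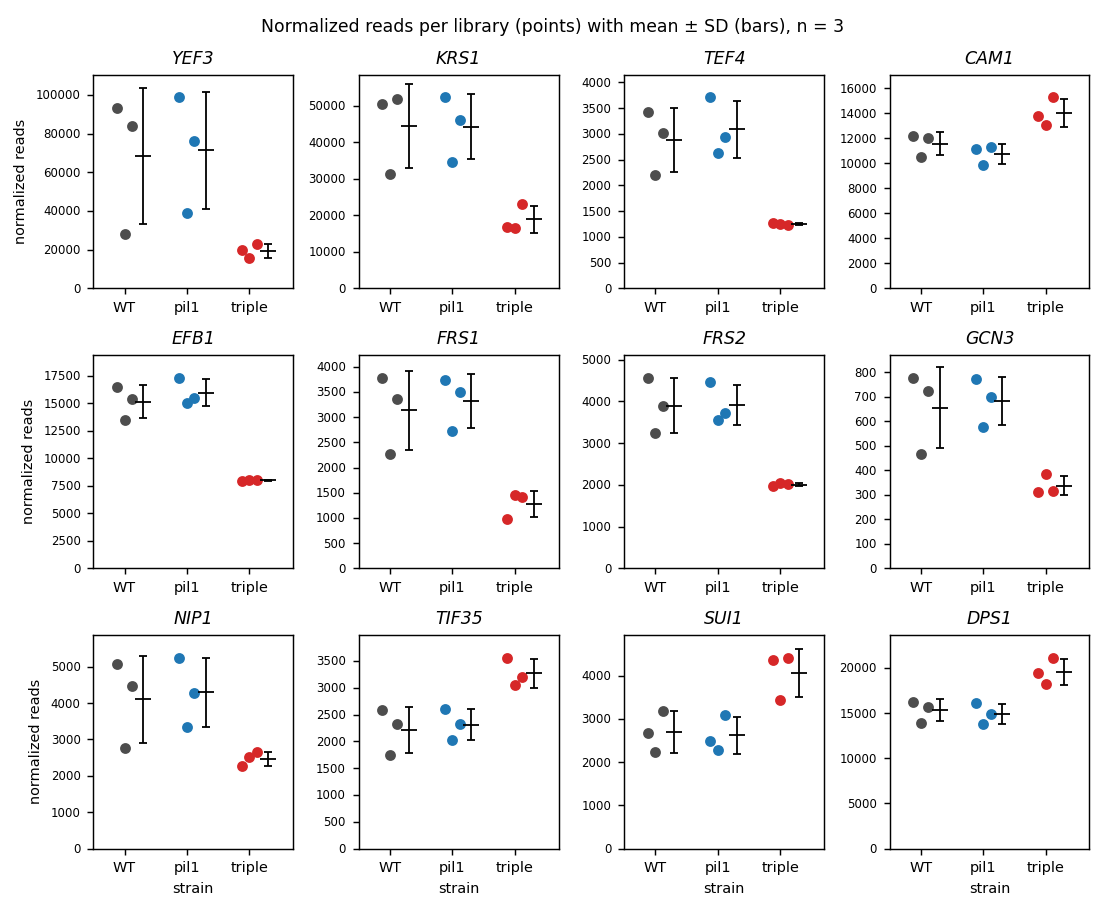
Points are normalized reads of 12 genes in each library of wild type (WT), pil1Δ (pil1) and the triple mutant (triple), and bars beside them give the mean ± SD (n = 3); every axis starts at 0. YEF3, KRS1, TEF4, EFB1, FRS1, FRS2, GCN3 and NIP1 sit lower in the triple mutant, while TIF35, SUI1 and DPS1 sit higher, and CAM1 sits higher without being called against wild type.

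The genes shared a sequence upstream that the choice by name did not use. In the 300 bases before each start codon, AAAATTTT, the core of the rRNA processing element found before many genes of ribosome synthesis, occurred for 33 of 55 genes (60%). It occurred for 561 of 5918 windows of the same length before all genes (9.48%). AAAATTTT reads the same on both strands. It was present before 7 of 9 elongation genes, both release factor genes and 10 of 18 synthetase genes. The 37 sites lay 60 to 230 bases before the start codon, with a median of 153. Sites before some of the genes called against wild type are shown here with 16 bases on either side, with the motif in capitals.
EFB1, chrI:142001-142040 (+): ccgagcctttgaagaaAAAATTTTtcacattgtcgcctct
TEF4, chrXI:282736-282775 (+): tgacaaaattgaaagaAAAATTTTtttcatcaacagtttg
YEF3, distal, chrXII:636575-636614 (+): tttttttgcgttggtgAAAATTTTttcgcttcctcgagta
YEF3, proximal, chrXII:636658-636697 (+): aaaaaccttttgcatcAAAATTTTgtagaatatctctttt
NIP1, chrXIII:895564-895603 (-): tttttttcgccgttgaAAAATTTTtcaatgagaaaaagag
WRS1, chrXV:137870-137909 (-): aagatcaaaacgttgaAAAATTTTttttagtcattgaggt
SUI1, chrXIV:187639-187678 (-): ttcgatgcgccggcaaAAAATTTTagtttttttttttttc
TIF35, chrIV:1325402-1325441 (-): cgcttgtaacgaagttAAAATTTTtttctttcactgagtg
The motif stood before genes that fell and genes that rose. It occurred before 11 of the 17 genes called lower, 2 of the 3 called higher and 20 of the 35 not called. The median log2 fold change was -0.20 for the 33 genes with it and -0.04 for the 22 without.

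FRS1 and FRS2, whose products form a single enzyme, both carry the motif. Their whole 300-base windows, at chrXII:260679-260978 (+) and chrVI:95011-95310 (-), are given with AAAATTTT in capitals.
FRS1: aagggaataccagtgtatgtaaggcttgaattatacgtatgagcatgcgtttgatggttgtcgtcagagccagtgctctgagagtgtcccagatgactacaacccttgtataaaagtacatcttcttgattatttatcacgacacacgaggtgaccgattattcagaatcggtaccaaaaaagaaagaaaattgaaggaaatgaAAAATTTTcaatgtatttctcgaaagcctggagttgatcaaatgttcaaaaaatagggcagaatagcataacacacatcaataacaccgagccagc
FRS2: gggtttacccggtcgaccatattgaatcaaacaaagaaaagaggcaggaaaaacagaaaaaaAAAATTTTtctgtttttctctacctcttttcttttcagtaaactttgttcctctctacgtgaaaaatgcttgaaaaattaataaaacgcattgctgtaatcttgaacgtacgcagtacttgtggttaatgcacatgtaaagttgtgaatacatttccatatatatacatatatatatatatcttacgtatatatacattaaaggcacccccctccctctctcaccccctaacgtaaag
The site lies 88 bases before the start codon of FRS1 and 230 bases before that of FRS2.

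TGACTC, the core of the site of Gcn4, the activator of amino acid synthesis genes, occurred on either strand before 6 of the 55 genes (10.9%) and 464 of all 5918 (7.84%). All 6 were synthetase genes, 33.3% of the 18. The sites are shown with 16 bases on either side and the motif, TGACTC or its reverse complement GAGTCA, in capitals.
KRS1, chrIV:525290-525327 (+): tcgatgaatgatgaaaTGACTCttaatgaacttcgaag
ILS1, chrII:84342-84379 (-): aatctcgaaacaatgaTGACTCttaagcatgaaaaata
THS1, chrIX:212279-212316 (+): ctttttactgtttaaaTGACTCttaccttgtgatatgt
DED81, chrVIII:143798-143835 (-): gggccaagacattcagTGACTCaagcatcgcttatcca
ALA1, chrXV:949135-949172 (-): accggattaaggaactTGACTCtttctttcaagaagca
VAS1, chrVII:672072-672109 (+): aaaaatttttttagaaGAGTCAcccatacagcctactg
KRS1 fell, and the other 5 genes were not called. GATGAG, the core of the PAC element, occurred on either strand before 11 of the 55 genes (20%) and 18.7% of all, 7 of them together with AAAATTTT. ACCCNNACA, the core of the Rap1 site, occurred on either strand before 2 (3.64%) and 3.13% of all.

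None of the 55 genes was called by limma in pil1Δ against wild type, and over all genes tested 0 were called higher and 0.017% lower, which is PIL1 itself. At an unadjusted p under 0.05 limma listed 59 of all genes and 0 of the 55. With same-numbered wild type and pil1Δ libraries paired through the replicate block, it listed 177 of all genes and 1 of the 55, and 827 and 9 with only these groups in the fit, while at an adjusted p under 0.05 the calls did not change. Without pairing, edgeR and DESeq2 called 0 of the 55, with 0 of all genes higher and 0.017% and 0.034% lower. Log2 fold changes of the 55 genes ran from -0.11 for CAM1 to 0.16 for TIF11, and for 50 of them the 95% interval lay within 1.5-fold of no change, as it did for 82.1% of all genes. With the block these were 52 genes and 86.6%. YEF3 had the widest spread between libraries, at 71270 ± 30050 normalized reads in pil1Δ and 68290 ± 35160 in wild type. The median of the 55 was 0.05. Leaving out 1 wild type or pil1Δ library, which breaks a pair, gave -0.05 (without wild type 2) to 0.14 (without wild type 1). The median was -0.02 without pil1Δ 1, and 0.02 without the pair of wild type 2 and pil1Δ 2.

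Against pil1Δ, the triple mutant had 23 of the 55 genes lower and 4 higher, or 49.1% called. Over all genes 32.1% were lower, 30.8% higher and 62.9% called in either direction, and this comparison shares the triple mutant libraries with the one against wild type. The median log2 fold change was -0.24 for the 55 genes. Scaling by total reads gave 37 of the 55 lower and 1 higher, with 43.7% of all genes lower and 17.4% higher, and the replicate block gave 7 higher, with 35% of all genes higher. YEF3 was lower by 1.79 on the log2 scale (SE 0.48, adjusted p = 0.00935 by limma), FRS1 by 1.39, TEF4 by 1.29, KRS1 by 1.23 and GCN3 by 1.01, with adjusted p between 0.00019 and 0.00205 for these other genes. Several genes passed here that had not passed against wild type, and whether the comparisons differ was not tested. CAM1 was higher (log2 fold change 0.39, adjusted p = 0.015 by limma), with the call lost without pil1Δ 2 (0.0624) or triple mutant 3 (0.056). The CAM1 call was also lost when libraries were scaled by total reads (log2 fold change 0.13, adjusted p = 0.32 by limma). PRT1 was lower by 0.66 (adjusted p = 0.0267), a call lost without pil1Δ 1 (0.0947), pil1Δ 3 (0.073), triple mutant 1 (0.0744) or triple mutant 2 (0.0634). RPG1 was lower by 0.61 (adjusted p = 0.0256), a call lost without pil1Δ 1 (0.0936), pil1Δ 3 (0.0616), triple mutant 1 (0.0726) or triple mutant 2 (0.053). SUP45 was lower by 0.34 (adjusted p = 0.0128; 0.0501 without pil1Δ 1), and TIF11 by 0.26 (adjusted p = 0.0122; 0.051 without pil1Δ 2). TEF1 and EFT1, of the near-identical pairs, also passed, at -0.41 (adjusted p = 0.0314) and -0.35 (adjusted p = 0.0249). The calls of TEF1 and EFT1 were lost without pil1Δ 1 (0.0952 and 0.088), pil1Δ 3 (0.0982 and 0.0536), triple mutant 1 (0.0547 and 0.06) or triple mutant 2 (0.0881 and 0.05). The sum of TEF1 and TEF2 was lower by 0.49 (adjusted p = 0.0172; 0.058 without pil1Δ 1 and 0.0622 without pil1Δ 3). The sum of EFT1 and EFT2 was not called (-0.34, adjusted p = 0.0588), but it passed without triple mutant 3 (0.0286), with TMM scaling (0.0479) and with DESeq2 (0.0451).

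Among other genes of the pathway, lists of mitochondrial and cytosolic translation factors had medians of opposite sign when the triple mutant was compared with wild type. Of 8 mitochondrial translation factor genes, 7 rose and 0 fell with a median log2 fold change of 0.73, against 30.1% of all genes higher and 30.9% lower. When libraries were scaled by total reads 4 of the 8 rose, against 17.5% of all genes. MEF2, a mitochondrial relative of elongation factor G, had 757.1 ± 52.1 normalized reads in wild type and 5547 ± 1860 in the triple mutant, 7.08-fold higher (adjusted p = 7.51e-06 by limma). TUF1, the mitochondrial counterpart of eEF1A, had 4784 ± 415 and 13060 ± 4044 (2.65-fold, adjusted p = 0.000246). AIM23, a mitochondrial initiation factor, and MEF1, a mitochondrial elongation factor, rose 1.86-fold and 1.72-fold. Of 13 mitochondrial synthetase genes, 2 rose and 3 fell, with a median of 0.00, and 38.5% were called against 60.9% of all genes. MSK1 (lysine) rose 2.01-fold and ISM1 (isoleucine) 1.56-fold, while MSF1 (phenylalanine) was 2.09-fold lower and MSW1 (tryptophan) 1.54-fold lower.

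Of 16 genes whose products modify elongation factors or eIF5A, 8 fell and 3 rose, with a median log2 fold change of -0.44, and 1 rose when libraries were scaled by total reads. The share called was 68.8%, near the 60.9% of all genes, of which 30.9% fell. EFM6, a methyltransferase of eEF1A, had 562.8 ± 171 normalized reads in wild type and 43.6 ± 11.8 in the triple mutant, 12.5-fold lower (adjusted p = 1.41e-05 by limma). RRT2 and DPH5, of the diphthamide pathway that modifies eEF2, were 2.27-fold and 1.78-fold lower (adjusted p = 1.38e-05 and 6.23e-05). EFM4, another methyltransferase of eEF1A, rose 2.55-fold (adjusted p = 0.000194). Of 16 other cytosolic factor genes, 7 fell and 2 rose, with a median of -0.32, and the share called, 56.2%, was near that of all genes. ASC1, the ribosome-bound signalling protein, was 2.46-fold lower (adjusted p = 2.23e-05 by limma) and holds the small nucleolar RNA gene SNR24. NIP7 of ribosome assembly was 2.28-fold lower, GCD10, a subunit of a tRNA methyltransferase, 2.08-fold lower, and RLI1, the ATPase of ribosome recycling, 1.91-fold lower.

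Genes of translational repressors and mRNA-binding proteins were called in 1 direction with the deposited size factors. Of 11 genes, 6 rose and 0 fell, with a median log2 fold change of 0.29, where 30.1% of all genes rose. When libraries were scaled by total reads 2 rose and 1 fell, where 17.5% of all genes rose and 40.4% fell. PAT1 and SCD6, which repress translation, rose by 0.46 and 0.47 on the log2 scale (adjusted p = 0.0004 and 0.000591 by limma), SBP1 by 0.45 and the helicase gene DBP1 by 0.80. SCD6 and SBP1 were not called when libraries were scaled by total reads (adjusted p = 0.0509 and 0.11). Of 6 genes of the eIF2 kinase pathway and GCN4, 1 rose and 2 fell, where 30.1% and 30.9% of all genes did. GIR2, whose product binds Gcn1, rose by 0.50 (adjusted p = 0.00135), and YIH1, which competes with the eIF2 kinase for Gcn1, and GCN20, a partner of Gcn1, fell by 0.36 and 0.30. GCN4 itself had 37520 ± 7301 normalized reads in wild type and 47510 ± 7098 in the triple mutant and was not called (adjusted p = 0.142 by limma, or 0.00973 with the replicate block). Among 5 other cytosolic synthetase and cofactor genes, GRS2, the second glycine enzyme gene, rose by 0.26 (adjusted p = 0.0217 by limma) and 0 fell. The call of GRS2 was lost without wild type 2 (0.0768), wild type 3 (0.0503) or triple mutant 3 (0.0785). CRS1, ARC1 and YDR341C were not called, at -0.28, -0.26 and -0.28, and CRS1 passed without triple mutant 2 (0.0449).

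**Figure D4:**
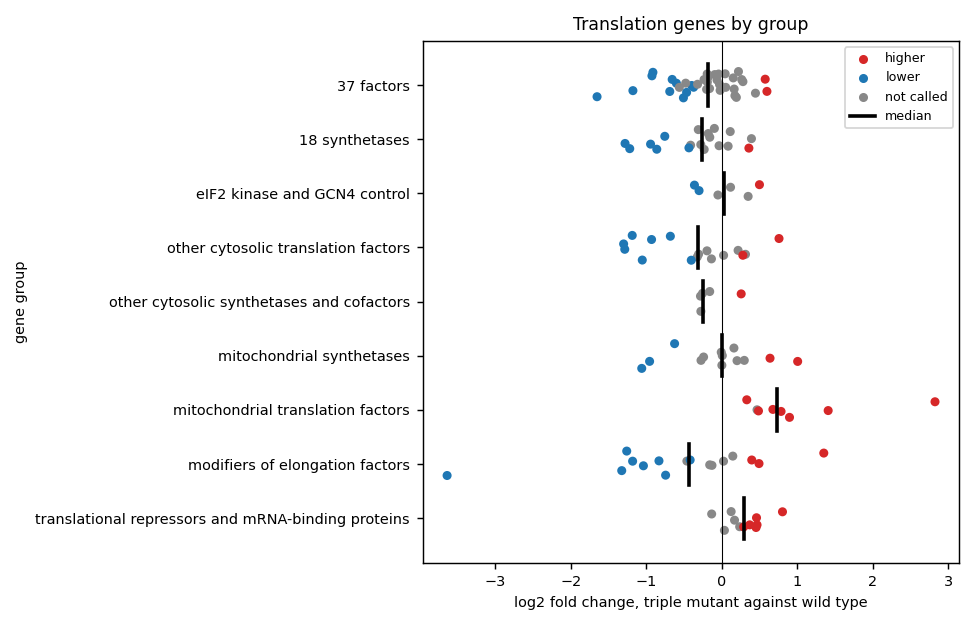
Points are log2 fold changes of single genes in the triple mutant against wild type, in rows by gene group, with red for genes called higher, blue for lower and grey for not called, and a black bar at each group's median. The medians of the 37 factors (-0.18) and 18 synthetases (-0.26) lie below 0, and that of the mitochondrial translation factors lies at 0.73.

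Per kilobase of coding length, the 55 genes covered a wide range of levels and were higher than most genes. In wild type their median was 3064 normalized reads per kb, against 1215 over 5802 genes. TEF2 was highest at 28120 ± 2294 normalized reads per kb, followed by KRS1 at 25040 ± 6467, EFB1 at 24370 ± 2435, YEF3 at 21780 ± 11220, HYP2 at 19580 ± 1496 and TEF1 at 17820 ± 2532. Neighbours in this order differed by less than the larger of their SDs. PAB1 followed at 11030 ± 2156, below TEF1 by more than either SD. GCN3 was lowest, at 714.0 ± 182. In the triple mutant KRS1 stood at rank 9 with 10610 ± 2121 and YEF3 at rank 12 with 6188 ± 1192. The levels of TEF1, TEF2, EFT1, EFT2, TIF1 and TIF2 depend on how reads of both copies were counted, and EFT1 and EFT2 stood at 1653 ± 94.6 and 2004 ± 254 in wild type, far below TEF2.

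**Figure D5:**
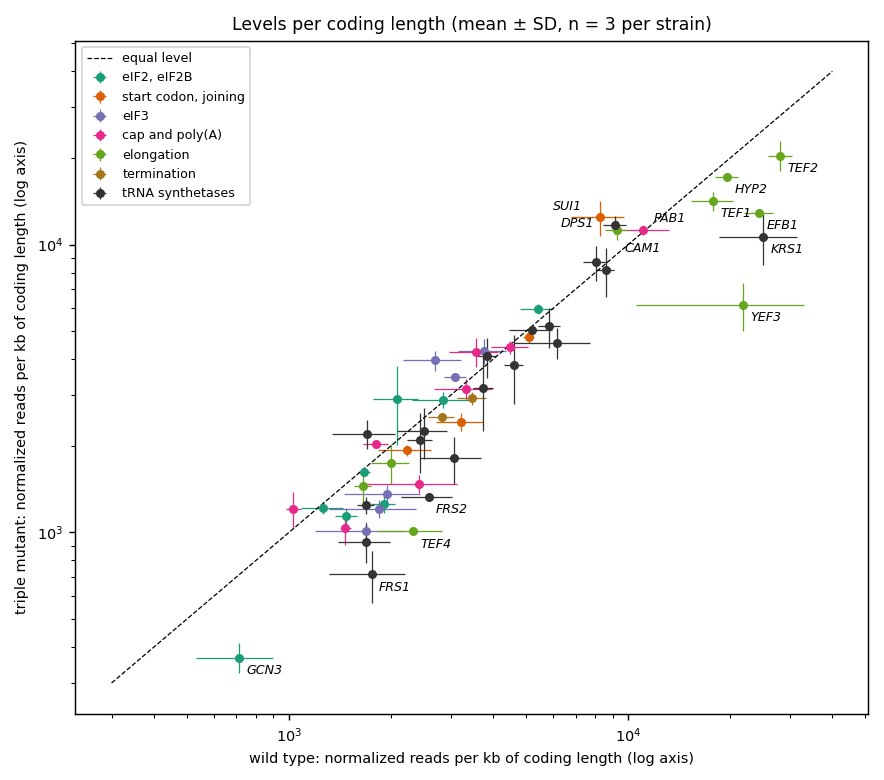
Each point is 1 gene, with its wild-type level across and its triple mutant level up, both in normalized reads per kb of coding length on log axes, with bars for the SD (n = 3 per strain), colours for the role and a dashed line for equal levels. KRS1, YEF3, EFB1, TEF4, FRS1, FRS2 and GCN3 lie below the line, and SUI1 and DPS1 lie above it.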

How the data were processed

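Per the labels' protocols, cells were broken with glass beads after a wash in 10 mM NaF/NaN3, and column-purified RNA was freed of DNA and enriched for poly(A). Per the submitters' processing notes, GSNAP, DESeq2 and DESeq were used with the genome build R64, with no versions or roles. Not given in the sources used here were the counter, the annotation and the use of strand. One deposited table gives 6215 genes as a signal, the read count over the size factor of its library. In every library 100% of values were whole multiples of 1 step at a tolerance of 1e-06, so whole reads could be recovered, with size factors between 0.791 and 1.34. The other deposited table, used as an alternative, gives log2 values of these genes from a transformation of unstated kind.

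limma 3.58.1 in R 4.3.3 (lmFit, then eBayes with trend and robust) was fitted to log2(value + 1) of all 9 libraries with group means. The 5886 genes averaging 10 or more normalized reads were tested, and p-values, two-sided, were adjusted by Benjamini-Hochberg over all of them, with calls at an adjusted p under 0.05. Fold changes are on the log2(value + 1) scale, which understates changes of low genes. The near-identical pairs were also fitted as sums in the whole table. Genes with values in every library were, by role, the called ones, the pairs and some of those not called, and the other uncalled genes are given by mean ± SD or fold change, although the rule as written asked for every library. Up to 4 genes of each pathway list with the smallest p were named, and HEF3 and ANB1 as paralogs. The 55 genes, the lists and the tests were chosen with earlier results of these data known.

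Alternatives were TMM scaling, scaling by total reads, the transformed table, a minimum mean of 50, no filter, only the groups compared, a pseudocount of 5, the replicate number as a block, edgeR 4.0.16 and DESeq2 1.42.0 on the recovered reads, each library left out, and the pair of wild type 1 and triple mutant 1 left out. Leaving out wild type 2 and pil1Δ 2 together was chosen after seeing the data. The scripts were tested on simulated data. Deviations of same-numbered wild type and pil1Δ libraries from their group means correlated at 0.639, 0.833 and 0.579, so those numbers pair the libraries by this check. The labels give these numbers and library names with a matching letter (A, B or C) in all strains, but name no pairing. The values printed come from the fit without the block unless the block is named. Replicates were not copies of one library, with chi-square over degrees of freedom of 36.1 to 396.5 (near 1 for sampling noise alone). Coordinates, coding sequences and the 300-base windows before start codons came from the RefSeq R64 reference, in which 6212 identifiers and all 55 genes were found.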

Additional observations from a re-analysis of the deposited data

How the results depend on the processing

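Of 20 translation genes called against wild type in the triple mutant, 11 kept their call in all 22 alternatives, as did 15 of 27 against pil1Δ, and 0 of these genes changed direction. In the triple mutant against wild type, some settings moved a count by more than 1.5-fold. The replicate block gave 8 of the 55 genes higher and DESeq2 gave 5. Total-read scaling gave 31 lower and 1028 of all genes higher, and the omission of both wild type 1 and triple mutant 1 gave 10 lower. Other settings made smaller shifts. Leaving out 1 library at a time gave 2 to 4 of the 55 higher and 12 to 23 lower. The counts of all genes were then 1575 to 1733 higher and 1615 to 1819 lower. Against pil1Δ, total-read scaling gave 1 of the 55 higher, 37 lower and 1023 of all genes higher, and the replicate block gave 7 higher. Leaving out wild type 2 and pil1Δ 2 together gave 2 of the 55 and 1696 of all genes higher there. Leaving out 1 library at a time gave 1 to 4 of the 55 higher and 15 to 24 lower against pil1Δ. Over all genes, 1587 to 1808 were then higher and 1674 to 1947 lower. In pil1Δ against wild type, DESeq2 called 2 genes lower. Same-numbered triple mutant libraries correlated with wild type at 0.05, 0.191 and 0.362 and with pil1Δ at 0.069, 0.237 and 0.439. Triple mutant libraries with a different number correlated with those strains at -0.296 to 0.025. Pairing by number was thus weaker for the triple mutant than between wild type and pil1Δ, but not absent by this check. The replicate block changed no call in pil1Δ against wild type.

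The sum of TEF1 and TEF2 against wild type was not called with only the groups compared or with the block and only those groups (-0.409 in both), nor without wild type 1 and triple mutant 1 (-0.333), and leaving out 1 library gave -0.496 to -0.349, or -0.567 to -0.440 against pil1Δ. The sum of EFT1 and EFT2 was called with total-read scaling against wild type (-0.424) and against pil1Δ (-0.596), and against pil1Δ with TMM (-0.351) and DESeq2 (-0.318), with -0.444 to -0.218 when leaving out 1 library. The transformed table gives no value for sums. In the lists, total-read scaling gave 1 other factor higher, 0 other synthetases higher and 3 lower, and 5 mitochondrial synthetases lower. It also gave 4 mitochondrial factors higher, 1 modifier higher, and 2 repressors higher and 1 lower. With that scaling 17.5% of all genes were higher and 40.4% lower. The block gave 2 genes of the eIF2 kinase list and 4 mitochondrial synthetases higher, against 34% of all genes. The block with only the groups compared gave 0 other synthetases higher, against 1645 of 5881 genes. Without wild type 2 and pil1Δ 2 there were 0 other synthetases and 1 modifier higher, against 1675 of 5885 genes. Without wild type 1 and triple mutant 1 there was 1 gene of the eIF2 kinase list lower, against 1590 of 5886 genes. Leaving out 1 library gave 0 to 1 other synthetases higher and 0 to 1 lower, against 1575 to 1733 of all genes higher and 1615 to 1819 lower. The cause of these shifts was not tested. Each strain had 3 libraries, and intervals cover the spread between them only.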
